A study of Mus musculus with 6 samples.

Results

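The genes of 10 receptors and co-receptors for bacterial and nucleic acid ligands were followed in mouse bone marrow-derived macrophages through 5 h of LPS: the Toll-like receptor genes Tlr1, Tlr2, Tlr3, Tlr4, Tlr6, Tlr7 and Tlr9, and the LPS co-receptor genes Cd14, Ly96 and Lbp. They were taken by gene symbol from a set proposed with earlier results of these data in view, and make up 10 of the 12394 genes named singly in the array's annotation, with 14 of its 22690 probe sets. Tlr7 has 3 probe sets, Tlr3 and Tlr4 have 2 each, and the other 7 genes have 1. None of the 14 is shared with another gene in the annotation, and all 14 passed the filter on low signals that left 13101 probe sets for testing. RNA from wild-type and IkappaB-beta knockout cells, all labelled as strain C57BL/6J, was measured after 0 h, 1 h and 5 h in 1 µg/ml LPS, with 1 Mouse Genome 430A 2.0 array for each genotype and time. IκBβ is an inhibitor that holds NF-κB in the cytoplasm. The macrophages had been grown from non-adherent marrow cells for 7 days in medium with 30% supernatant of L929 cells, a source of the macrophage growth factor M-CSF. The labels do not describe the knockout allele, the age or sex of the mice, or whether the arrays of a genotype share an animal. The time comparison asks how LPS alters the macrophage's own sensors, and the genotype comparison whether loss of IκBβ alters them.

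LPS is handed by LBP, a plasma protein, to CD14 on the macrophage surface, and from there to TLR4 bound to MD-2, the product of Ly96. TLR2 pairs with TLR1 or TLR6 to detect bacterial lipopeptides, while TLR3, TLR7 and TLR9 lie in endosomes and detect double-stranded RNA, single-stranded RNA and unmethylated CpG DNA. Signals from most of these receptors reach NF-κB through the adaptor MyD88, while TLR3 signals through the adaptor TRIF, which internalised TLR4 uses as well, to induce interferon beta.

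Values are MAS5 signals on a linear scale, and changes are on the log2 scale. A change is the mean over the genotypes with its standard error (SE) from limma's fit of time and genotype to the 6 arrays. A probe set was called higher or lower at a Benjamini-Hochberg adjusted p under 0.05 over the 13101 tested. With 1 array for each genotype and time the fit has 2 residual degrees of freedom, its p-values do not cover the spread between animals, and the change within a genotype has no test. As checks of the labels, Nfkbib, the IκBβ gene, read 477, 3330 and 5007 on the wild-type arrays and 30.5, 136 and 56.1 on the knockout arrays in order of time. Where its probes lie relative to the deletion was not known here. Array medians ran from 65.2 to 117, and the trimmed means were equal to within 500.2 to 500.3. All 11 macrophage marker genes with a probe set passed the filter, and their summed signal was 77884 to 88693 on the 6 arrays. The sum does not show that each marker was steady. At 5 h 3 of the 11 were called higher and 4 lower than at 0 h, against 20.8% and 49.8% of all tested. Of these 4, Cd163 passed the filter only through its wild-type arrays of 0 h and 1 h and lends the count no support. In RNA from a whole culture, fewer cells of a type and less RNA per cell cannot be told apart.

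The receptors did not move as a group under LPS. At 1 h Tlr2, Tlr1, Cd14 and 1 probe set of Tlr7 were called higher, which is 4 of 14 probe sets higher and 0 lower by limma, against 5.32% higher and 4.6% lower (9.92% in either direction) among all tested. At an unadjusted p under 0.05 the counts were 5 higher and 2 lower, the 2 being those of Tlr4. In either direction 3974 of all 13101 tested probe sets were under this unadjusted level at 1 h. At 5 h 9 of 14 were called higher (Tlr1, both of Tlr3, Tlr6, all 3 of Tlr7, Cd14 and Ly96) and 2 lower (both of Tlr4), against 20.8% and 49.8% (70.6% in either direction) of all tested. Of the 9, the Tlr3 probe set 1422781_at passed the filter only through its arrays of 5 h and lends the count no support. By gene, 6 rose, 1 fell and 3 (Tlr2, Tlr9 and Lbp) did not pass. The median change of the 14 was 0.07 at 1 h and 0.70 at 5 h, beside −0.17 and −0.48 over all tested probe sets. Between 1 h and 5 h, 5 were called higher and 4 lower, against 19% and 41.8% (60.8% in either direction) of all tested. Tlr3 1422781_at is among these 5 and again lends the count no support. These comparisons share arrays and are not independent of each other.

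**Figure D1:**
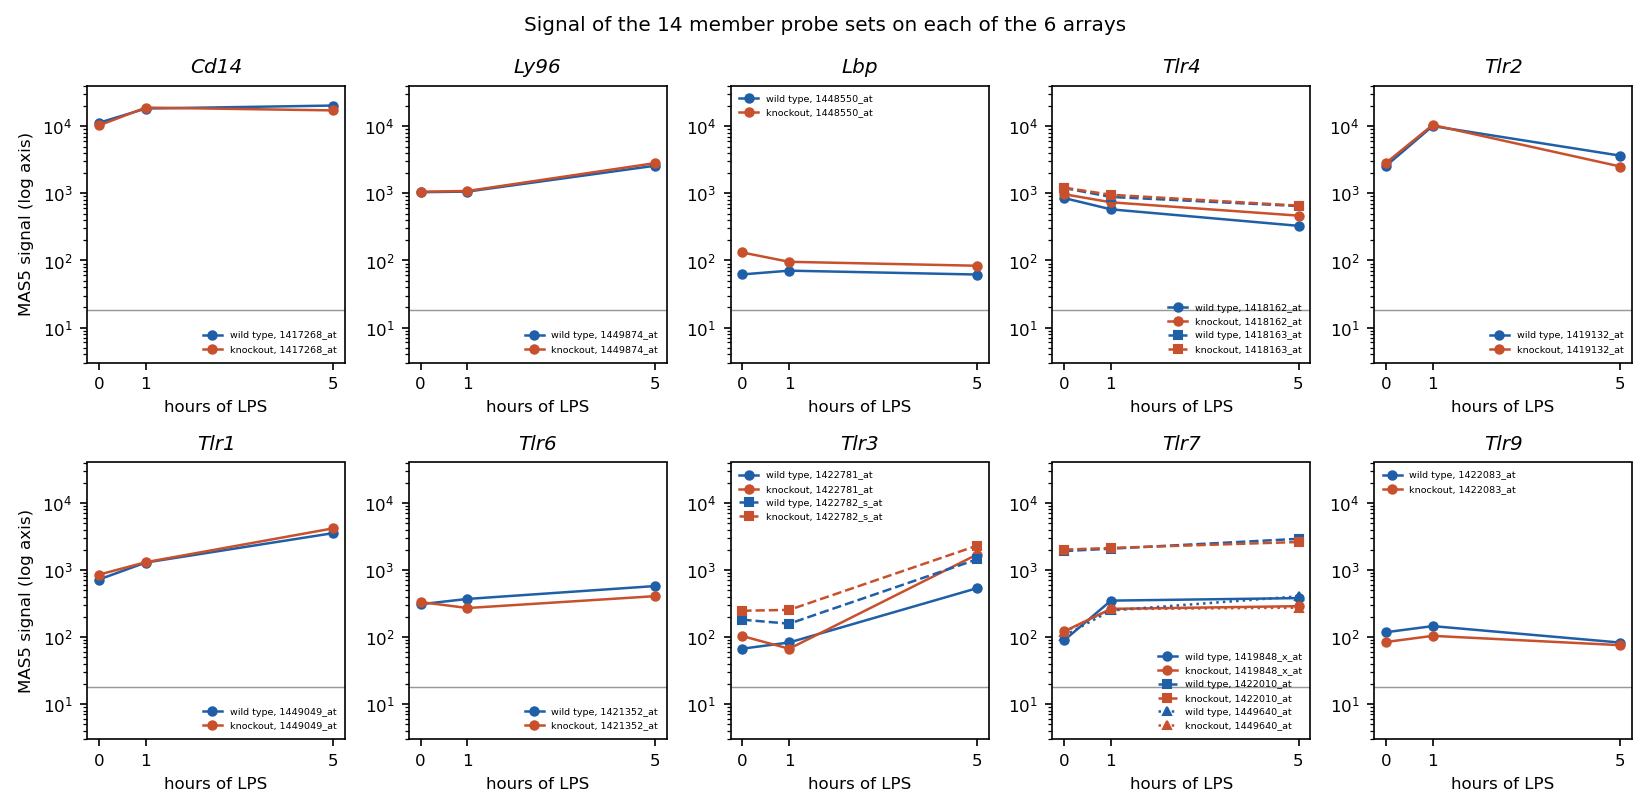
MAS5 signal (log axis) of the 14 probe sets against hours of LPS, 1 panel for each gene, with wild type in blue and knockout in orange, 1 array for each point, and the floor of 18.2 as a grey line. Tlr2 peaks at 1 h, Tlr3, Tlr1 and Ly96 are highest at 5 h, and Tlr4 is lower at each later time.

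**Figure D2:**
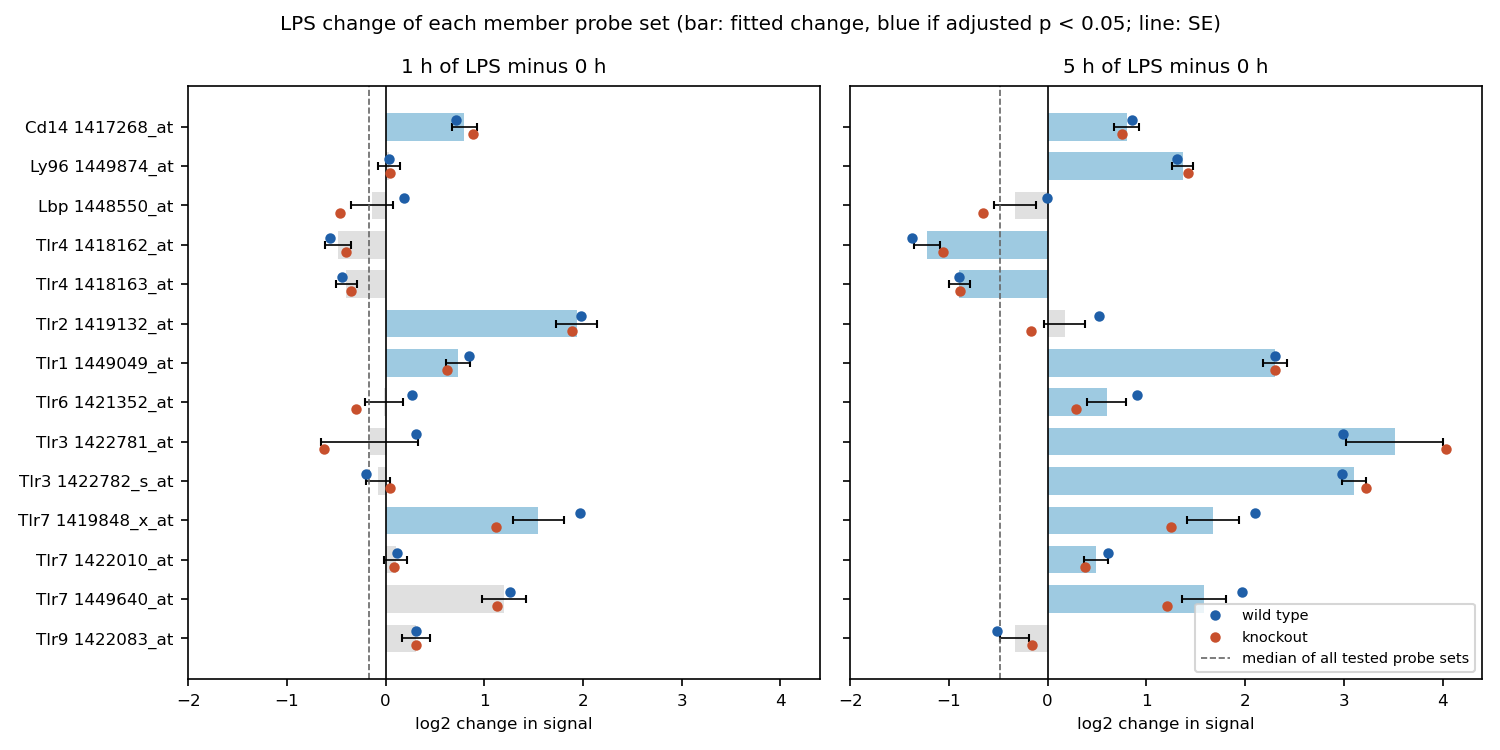
Log2 change from 0 h at 1 h (left) and 5 h (right) for each probe set; bars are the fitted change with its SE, blue where adjusted p is under 0.05, points are the genotypes, and the dashed line is the median of all tested probe sets. Both Tlr4 bars point left and those of Tlr3, Tlr1, Tlr7, Ly96 and Cd14 point right at 5 h.

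Most calls at 1 h depended on single arrays. Leaving out any 1 array ended the 1 h calls of Tlr1 (adjusted p 0.0688 to 0.238, change 0.62 to 0.84) and of Cd14 (adjusted p 0.0609 to 0.216, change 0.68 to 0.91). The call of Tlr2 at 1 h ended without the wild-type 0 h (adjusted p = 0.0799), wild-type 1 h (0.104), knockout 0 h (0.0551) or knockout 1 h array (0.125), with its change at 1.74 to 2.13. That of the Tlr7 probe set 1419848_x_at ended without any 1 array other than the knockout 0 h array, at adjusted p 0.0801 to 0.206. Without the filter on low signals 0 of the 14 were called at 1 h in limma's test over 22626 probe sets (adjusted p = 0.0932 for Tlr2). The 5 h calls of Tlr1, Tlr3 1422782_s_at, Tlr4, Cd14, Ly96 and the dim Tlr7 probe sets were kept whichever array was left out. That of Tlr3 1422781_at was kept too, but this probe set passed the filter only through its arrays of 5 h, so this is no support.

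Scaling bears on the 5 h values, because the median of all tested probe sets moved by −0.48 at the deposited scale, by −0.12 after quantile normalization and by 0.28 after each array was centred on its median. The share of calls that were higher went from 29.4% to 44% and 62.9% in these settings at 5 h. At 1 h the median moved by −0.17, −0.10 and 0.01, and the share was 53.6%, 63.6% and 70.9%. Between 1 h and 5 h the median moved by −0.33, −0.05 and 0.26, and the share was 31.2%, 46.1% and 63.5%.

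Tlr4, the LPS receptor gene itself, fell. Its probe set 1418163_at read 1206, 886 and 648 in wild-type cells and 1220.0, 955 and 657 in the knockout cells at 0 h, 1 h and 5 h. The probe set 1418162_at read 854, 579 and 329 in wild-type cells and 974, 737 and 466 in the knockout cells. On both, every later array was below the earlier arrays of the same genotype, and the 2 arrays of 5 h lay below all those of 0 h. At 1 h the changes were −0.40 (SE 0.11) and −0.48 (SE 0.13) and did not pass (adjusted p = 0.0982 and 0.098 in limma's fit). At 5 h they were −0.89 (SE 0.11, adjusted p = 0.00275) and −1.22 (SE 0.13, adjusted p = 0.00198), leaving 53.8% of the 0 h signal on the first probe set in wild-type cells and 53.9% in the knockout cells. Against the median of all tested probe sets these falls were 0.41 and 0.74 in size. After quantile normalization both stayed called lower at 5 h, and after median centring neither was (−0.13, adjusted p = 0.453, and −0.46, adjusted p = 0.0614). The further fall from 1 h to 5 h, −0.50 and −0.74 (adjusted p = 0.0185 and 0.0102), lost its call after median centring (0.09 and −0.16). It also lost it for 1418162_at without either 1 h array (adjusted p = 0.068 and 0.069), and for 1418163_at after quantile normalization (−0.29, adjusted p = 0.0791) or without any array other than that of wild type at 5 h (adjusted p 0.0589 to 0.123).

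Cd14 and Ly96, whose products serve TLR4, rose with different timing. Cd14 read 11290 at 0 h, 18444 at 1 h and 20444 at 5 h in wild-type cells, and 10304, 19050 and 17307 in the knockout cells. All 4 arrays with LPS were above both arrays without it, and the arrays of 1 h and 5 h overlapped. The change was 0.80 (SE 0.13) at 1 h (limma, adjusted p = 0.0366; 0.0904 without the filter on low signals, and lost without any 1 array as given above) and 0.80 at 5 h (adjusted p = 0.00584). The highest signal of any probe set was 20645 to 25581 on these arrays, so Cd14 lay near the top of the measured range. Ly96, the MD-2 gene, read 1042, 1065 and 2590 in wild-type cells and 1058, 1088 and 2831 in the knockout cells. Its change at 1 h did not pass (0.04, adjusted p = 0.842) and was higher by 1.37 (SE 0.11, adjusted p = 0.000981) at 5 h, 2.48-fold in wild-type cells and 2.67-fold in the knockout cells. The 2 arrays of 5 h stood above the other 4, which lay close together.

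Within an array the ratio of 2 probe sets does not depend on the array's scale. From 0 h to 5 h the log2 ratio of Ly96 to the brighter Tlr4 probe set changed by 2.21 in wild-type cells and 2.31 in the knockout cells, and that of Cd14 to Tlr4 by 1.75 and 1.64. The receptor gene and its co-receptor genes thus changed unequally in both genotypes at any scale, which alone does not say which of them moved. These ratios were chosen after the values were seen and have no test.

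Lbp, which in the body is made mainly by the liver, gave a low signal of 62, 70.5 and 61.7 in wild-type cells and 132, 95.5 and 83.5 in the knockout cells. It exceeded the array median on 2 of 6 arrays, those of the knockout at 0 h and 5 h. Its genotypes moved in opposite directions at 1 h (0.19 and −0.46), and no LPS change passed (adjusted p = 0.678 at 1 h and 0.222 at 5 h).

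Among the lipopeptide receptors, Tlr2 was the early and short-lived riser. It read 2557 at 0 h, 10115 at 1 h and 3657 at 5 h in wild-type cells, and 2836, 10490 and 2520.5 in the knockout cells. Both arrays of 1 h were far above the other 4, at 3.96-fold in wild-type cells and 3.70-fold in the knockout cells over 0 h. The change at 1 h was 1.94 (SE 0.21, adjusted p = 0.0161 in limma's fit), and that from 1 h to 5 h was −1.76 (SE 0.21, adjusted p = 0.00363), which was kept without any 1 array and under each other setting tried. At 5 h against 0 h the change was 0.17 (adjusted p = 0.493), made of 0.52 in wild-type cells and −0.17 in the knockout cells. The mean change at 5 h depended on scale and arrays. It was −0.02 after quantile normalization, 0.94 (adjusted p = 0.00868) once arrays were centred on their medians, −0.02 and −0.15 when the wild-type 0 h or 5 h array was left out, and 0.49 (adjusted p = 0.0476) without the knockout 5 h array. The RefSeq promoter table holds a window for 5 of the 10 genes, in 7 windows of 250 bases before to 50 bases after a start, on build GRCm38.p6. The bases before the start of Tlr2 are shown because its signal turned fastest, with capitals for matches to an NF-κB motif (GGGANNNNCC or GGGGNNNNCC on either strand).

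Tlr2 promoter, chr3:83841609-83841858, minus strand: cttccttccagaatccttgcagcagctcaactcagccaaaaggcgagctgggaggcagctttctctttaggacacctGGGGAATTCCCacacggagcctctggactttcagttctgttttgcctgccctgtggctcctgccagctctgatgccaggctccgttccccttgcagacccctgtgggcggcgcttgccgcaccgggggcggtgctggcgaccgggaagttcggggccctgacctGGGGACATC

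The first stretch in capitals, at −173 to −163 from the start, holds GGGAATTCCC, which reads the same on both strands, and the last matches run past the printed bases, over the start. A match to this motif is found in 32.5% of the 32851 mouse promoter windows, so it is a description of the sequence and not of binding.

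Tlr1, whose product pairs with TLR2, was higher at 1 h and rose further to 5 h. It read 718, 1288 and 3542 in wild-type cells and 849, 1303 and 4175 in the knockout cells at 0 h, 1 h and 5 h, with no overlap between times. The rise was 0.73 (SE 0.12) at 1 h (limma, adjusted p = 0.0404; 0.0886 without the filter on low signals, and lost without any 1 array) and 2.30 (SE 0.12) at 5 h (adjusted p = 0.000478). Between 1 h and 5 h it was 1.57 (adjusted p = 0.0014), where Tlr2 fell. Within an array, the log2 ratio of Tlr1 to Tlr2 changed from 0 h by −1.14 in wild-type cells and −1.27 in the knockout cells at 1 h, and by 1.79 and 2.47 at 5 h.

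Tlr6, the other partner of TLR2, gave the least firm of the 5 h calls. Its signals were 308, 369 and 575 in wild-type cells and 332, 270.2 and 406 in the knockout cells, so the genotypes moved in opposite directions at 1 h (0.26 and −0.30) and overlapped with 0 h. At 5 h both arrays were above those of 0 h, and the change of 0.60 (SE 0.20) passed narrowly (limma, adjusted p = 0.0498). The call ended without any 1 array other than the knockout 0 h array (adjusted p 0.0824 to 0.266, with a change of 0.30 without the wild-type 0 h array). It also ended with the floor at the 10th percentile (adjusted p = 0.0553), without the filter (0.162) and without a genotype term (0.0659). Tlr1 and Tlr6 are neighbours on chromosome 5, where 19.5 kb separate them in GRCm38.p6, and both are read from the minus strand. A window of each is shown because these neighbours differed in size of change. Capitals mark the interferon response motif GAAANNGAAA on either strand in Tlr6, and GAGGAA, a core of sites for the myeloid factor PU.1, in Tlr1.

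Tlr6 promoter, chr5:64959167-64959416, minus strand: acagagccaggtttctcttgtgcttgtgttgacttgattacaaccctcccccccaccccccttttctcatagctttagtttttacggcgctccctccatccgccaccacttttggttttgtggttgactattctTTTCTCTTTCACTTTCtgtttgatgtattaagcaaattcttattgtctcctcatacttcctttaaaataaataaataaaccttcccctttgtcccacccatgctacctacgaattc

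Tlr1 promoter, chr5:64933559-64933808, minus strand: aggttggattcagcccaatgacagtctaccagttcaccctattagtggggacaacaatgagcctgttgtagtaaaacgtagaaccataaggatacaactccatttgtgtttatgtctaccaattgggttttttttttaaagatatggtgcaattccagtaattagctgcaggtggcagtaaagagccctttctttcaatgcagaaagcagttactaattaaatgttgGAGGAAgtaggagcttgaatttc

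The Tlr6 window holds 2 overlapping matches, at −116 to −101, to the interferon response motif, which occurs in 3.44% of all windows, and the Tlr1 window shown has none. The second window of each gene has no match to any of the 4 motifs searched, the fourth being TGANTCA for AP-1, found in 7.81% of windows. GAGGAA occurs in 28.3% of all windows. Both Tlr6 windows lie inside the gene, which spans 64953092 to 64970942, so neither covers its outermost start.

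Tlr3, the endosomal receptor for double-stranded RNA, had the largest rise of the 10 genes, and it came after 1 h. Its probe set 1422782_s_at read 181, 158 and 1433 in wild-type cells and 246, 254 and 2295 in the knockout cells. The probe set 1422781_at read 66.9, 82.8 and 533 in wild-type cells and 103, 66.8 and 1691 in the knockout cells, and it passed the filter through its 2 arrays of 5 h alone, where it is high, so its filtered p is no evidence of the rise. On both, the arrays of 0 h and 1 h overlapped and both arrays of 5 h were above them. At 1 h the changes were −0.08 and −0.16 (limma, adjusted p = 0.691 and 0.845), and both turned to just above 0 after median centring (0.10 and 0.02) and quantile normalization (0.08 and 0.006). At 5 h the change of 1422782_s_at was 3.10 (SE 0.12, adjusted p = 0.000407), and from 1 h to 5 h it was 3.18 (adjusted p = 0.000787). For 1422781_at these changes were 3.51 and 3.67, with adjusted p of 0.0467 and 0.0517 in limma's fit to all probe sets with no filter. The bases before the Tlr3 start are given for comparison with Tlr2, with the same NF-κB motif in capitals.

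Tlr3 promoter, chr8:45410381-45410630, minus strand: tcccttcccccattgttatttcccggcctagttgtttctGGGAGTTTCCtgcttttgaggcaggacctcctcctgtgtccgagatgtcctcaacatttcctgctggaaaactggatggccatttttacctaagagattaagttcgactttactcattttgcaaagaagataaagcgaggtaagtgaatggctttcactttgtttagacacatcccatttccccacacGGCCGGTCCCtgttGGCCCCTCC

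This window holds 3 separate matches, of which the last ends on the start base, and no match to the interferon response motif. That says only that those letters are not in this window. The window lies inside the gene, which spans 45395665 to 45411075, and does not cover its outermost start.

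Tlr7, the X-linked gene for the single-stranded RNA receptor, was read differently by its probe sets. The bright probe set 1422010_at read 1910, 2074 and 2909 in wild-type cells and 2008, 2126 and 2609 in the knockout cells, a change of 0.10 at 1 h (limma, adjusted p = 0.597) and 0.49 (SE 0.12, adjusted p = 0.022) at 5 h. The 2 dim ones were designed from 1 sequence record and the bright one from another. The dim probe set 1449640_at read 103, 249 and 404 in wild-type cells and 119, 260 and 273 in the knockout cells, with changes at 1 h of 1.26 and 1.13 by genotype (adjusted p = 0.0502), and rose by 1.58 (SE 0.22, adjusted p = 0.00426) at 5 h. The other, 1419848_x_at, whose suffix marks probes that can match other transcripts, read 88.7, 348 and 380 in wild-type cells and 121, 262 and 288 in the knockout cells. It rose by 1.55 (SE 0.26) at 1 h (adjusted p = 0.0412; 0.0511 with the floor at the 10th percentile and 0.15 without the filter on low signals) and by 1.68 at 5 h (adjusted p = 0.00564; 0.0502 without the filter). All 3 were higher at 5 h in both genotypes, but their sizes disagree, so the size of the Tlr7 change is uncertain. The call of the bright one at 5 h ended after quantile normalization (0.34, adjusted p = 0.0581) and without any 1 array other than the knockout 5 h array (adjusted p 0.0541 to 0.162). Its change from 1 h to 5 h, 0.39 (adjusted p = 0.0483), was lost without any 1 array (adjusted p 0.051 to 0.22), after quantile normalization (0.27, adjusted p = 0.117), with the floor at the 10th percentile (0.0506) and without the filter (0.0696).

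Tlr9, the CpG DNA receptor gene, stayed near the array median. It read 118, 145 and 82.5 in wild-type cells and 84.1, 104 and 75.5 in the knockout cells, so both arrays of 5 h were the lowest and those of 0 h and 1 h overlapped. Neither the change at 1 h (0.31, limma's adjusted p = 0.236) nor that at 5 h (−0.33, adjusted p = 0.102) passed, and the second was 0.43 after median centring and 0.42 after quantile normalization. From 1 h to 5 h it was called lower (−0.64, adjusted p = 0.0208), a call lost without the wild-type 1 h (adjusted p = 0.128), wild-type 5 h (0.0557) or knockout 1 h array (0.0763). It was also lost after quantile normalization (−0.04), after median centring (−0.05), without the filter (adjusted p = 0.0701), with trended moderation (0.0614) and without a genotype term (0.0639). The Tlr9 window holds a match to AP-1 and 2 to GAGGAA. B cells carry Tlr9 too, and the summed signal of 8 B cell markers was also lower at 5 h than at 1 h: 3838, 2682 and 546 in wild-type cells and 3946, 2908 and 530 in the knockout cells. Of those 8 genes 4 exceeded an array median on at least 1 array, Ighm made up most of the sum, and Pax5 was under the floor on all 6 arrays. The part of such cells in the Tlr9 values was not tested.

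Few markers of T and NK cells, fibroblasts, mast cells and neutrophils exceeded the array median on any array. Over all probe sets other than controls, 13101 of 22626 did. Among T and NK cell markers 1 of 8 exceeded an array median on any array (summed signal 59.9 to 201), among fibroblast markers 2 of 8 (140 to 365), among mast cell markers 1 of 5 (82 to 891) and among neutrophil markers 3 of 9 (1276 to 2582). Of 8 dendritic cell markers 4 did, with sums of 4682, 4062 and 9489 in wild-type cells and 4823, 3753 and 10099 in the knockout cells. Most of the difference in this last list was in Bst2, which is also interferon-inducible, from 2144 to 6255 in wild-type cells. The sum was higher at 5 h along with Tlr3, Tlr1, Tlr7 and Ly96, and its part in those results was not tested.

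Genes whose pattern was most like that of each receptor were found by Pearson's r of log2 signal over the 6 arrays among 7507 other genes. With 3 times and 2 genotypes many genes reach a high r, so this is a description. Tlr3 was followed most closely by Ddx60, an antiviral helicase gene (r = 0.999), which read 230, 200 and 1987 in wild-type cells and 332, 304 and 2887 in the knockout cells. Pcmt1 was nearly as close (r = 0.999), at 718, 712 and 1415 in wild-type cells and 781, 813 and 1635 in the knockout cells. Tlr2 was most like Rrad, a small GTPase gene (r = 0.998, but 0.849 after quantile normalization), at 171, 489 and 223 in wild-type cells and 185, 468 and 180 in the knockout cells. Next for Tlr2 was Marchf7 (r = 0.996, and 0.991 after quantile normalization). Cd14 was most like Slc7a11, a cystine transporter subunit gene (r = 0.998, but 0.979 after quantile normalization). Next was Plek, the pleckstrin gene (r = 0.995, and 0.9885 after quantile normalization), so the order of these genes depended on the scale. Plek read 4027, 14548 and 16236 in wild-type cells and 3363, 12999 and 12342 in the knockout cells. Tlr1 was most like Ciao2b and Chordc1 (r = 0.999 for both), Tlr4 like Zdhhc4 and Wdr75 (0.999 for both) and Tlr7 like Surf4 and Rnf14 (0.999 and 0.997). Tlr6 had looser company in Chrnb2 and Sinhcaf (0.984 for both, and 0.9725 and 0.988 after quantile normalization). Those of Ly96, Tcstv3 and Plod2, were under the floor on their 4 arrays of 0 h and 1 h.

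The rest of the pathway was read from 5 lists, each gene by its brightest probe set. In all 51 genes were tested, of which 6 were called higher and 2 lower at 1 h, and 19 higher and 18 lower at 5 h, beside 5.32% and 4.6%, and 20.8% and 49.8%, of all tested probe sets. Socs1, among those higher at both times, and Vcan, among those higher at 5 h, were kept only through arrays with LPS. They lend these counts no support. Cxcr4 was kept only through its arrays of 0 h and 1 h, and lends the count of 18 lower at 5 h no support. After median centring the counts at 5 h were 31 higher and 8 lower. At an unadjusted p under 0.05, 3974 of all 13101 tested probe sets passed at 1 h and 9630 at 5 h, in either direction. The unadjusted counts given below for single lists are to be read beside these.

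Relatives of the receptors were not called against 0 h at either time. Of 7 such genes 3 were tested: Tlr8, the LPS receptor homologue gene Cd180, and Ly86, the gene for its partner MD-1. Limma called 0 of these 3 at 1 h (1 lower at an unadjusted p under 0.05) and 0 at 5 h (0 unadjusted). Tlr8 read 1335, 1042 and 1604 in wild-type cells and 1655, 1284 and 1873 in the knockout cells, and was called higher from 1 h to 5 h (0.58, adjusted p = 0.0116). Cd180 stood at 0.23 at 5 h (adjusted p = 0.2) and was called higher after quantile normalization (0.56, adjusted p = 0.0296) and median centring (1.00, adjusted p = 0.00555). Ly86 stood at −0.14 at 5 h (adjusted p = 0.313). It was called lower after quantile normalization (−0.35, adjusted p = 0.0433) and higher after median centring (0.63, adjusted p = 0.0139), so its direction follows the scale.

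Among 11 tested genes for chaperones and proteases of the endosomal receptors, limma called 0 at 1 h (1 higher and 1 lower at an unadjusted p under 0.05). At 5 h 2 of the 11 were called higher and 4 lower, against 20.8% and 49.8% of all tested probe sets. The median was −0.15 against −0.48 over all tested. Cnpy3, which encodes a chaperone that Toll-like receptors need to fold, fell most at 5 h, by 2.44 (SE 0.18, adjusted p = 0.000807). It read 661, 431 and 125 in wild-type cells and 654, 591 and 118 in the knockout cells. Hsp90aa1, a cytosolic chaperone gene, rose by 1.45 (adjusted p = 0.0013). The trafficking chaperone gene Unc93b1 moved by −0.34 (adjusted p = 0.0442), less than the median of all tested.

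Adaptors and proximal kinases went both ways. Of 12 tested from a list of 19, 3 rose and 1 fell at 1 h, and 7 rose and 4 fell at 5 h, with medians of 0.25 and 0.81. Over all tested probe sets 5.32% were called higher and 4.6% lower at 1 h, and 20.8% and 49.8% at 5 h. Their medians were −0.17 and −0.48. The shared adaptor gene Myd88 was higher by 0.81 at 1 h (adjusted p = 0.0315), by 2.04 at 5 h (adjusted p = 0.000547), and read 1643, 2874 and 6281 in wild-type cells and 1626, 2857 and 7199 in the knockout cells. Peli1, a ubiquitin ligase gene, rose most (2.36 at 1 h, adjusted p = 0.0051, or 0.0567 without the filter on low signals; 3.04 at 5 h, adjusted p = 0.000437). Irak1, a kinase gene that acts downstream of MyD88, fell by 2.08 at 5 h (adjusted p = 0.00075), the most of the list, and read 1323, 879 and 330 in wild-type cells and 1215, 963 and 272 in the knockout cells. At 1 h Tab1, a partner of the kinase TAK1, moved most to the lower side (−1.32, adjusted p = 0.046), a call lost after quantile normalization (adjusted p = 0.0713) and without the filter (0.154).

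Of 9 inhibitors tested, 3 rose and 0 fell at 1 h by limma (4 and 1 at an unadjusted p under 0.05), and 6 rose and 1 fell at 5 h, with medians of 0.41 and 0.99. The shares over all tested were 5.32% higher and 4.6% lower at 1 h, and 20.8% and 49.8% at 5 h, with medians of −0.17 and −0.48. Socs1 is among the 3 and the 6, was kept only through arrays with LPS, and lends these counts no support. Tnfaip3, the gene for the deubiquitinase A20, rose by 5.69 at 1 h (adjusted p = 0.00207). Socs1, an inhibitor of cytokine and Toll-like receptor signals, read 13.6, 109 and 1724 in wild-type cells and 23.0, 244 and 2345 in the knockout cells. Its 0 h signals were under or near the floor of 18.2 and it was kept only through arrays with LPS, so the size of its change is not given. With no filter it was called higher at 5 h (adjusted p = 0.00653). Inpp5d, the SHIP1 phosphatase gene, fell by 4.86 at 5 h (adjusted p = 0.000404), from 2100.3 to 69.2 in wild-type cells and from 2234 to 80.4 in the knockout cells.

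Surface proteins that bind or move LPS or its receptor gave 0 risen and 1 fallen of 16 tested at 1 h by limma (2 and 2 at an unadjusted p under 0.05), and 4 risen and 9 fallen at 5 h. The counts at 5 h are near the shares over all tested probe sets (20.8% higher and 49.8% lower), and so is the median, −0.41 against −0.48. Cxcr4, a chemokine receptor reported in LPS sensing complexes, fell by 2.42 at 1 h (adjusted p = 0.0104; 0.0825 without the filter) and fell by 6.16 at 5 h (adjusted p = 0.000404; 0.00603 without the filter), to signals of 27.9 and 23.6 near the floor. Vcan, whose product versican is a matrix ligand of TLR2, read 34.9, 7.93 and 1349 in wild-type cells and 45.3, 51.5 and 1892 in the knockout cells. It was kept only through its arrays of 5 h, and 1 of the others was under the floor, so Vcan lends the count of 4 risen no support. With no filter it was called higher at 5 h (adjusted p = 0.0118). Msr1, a scavenger receptor that takes up LPS, stood at 0.66 at 1 h (adjusted p = 0.0655; called with median-centred arrays, at 0.0447, and with a signal above 200 required, at 0.0384).

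**Figure D3:**
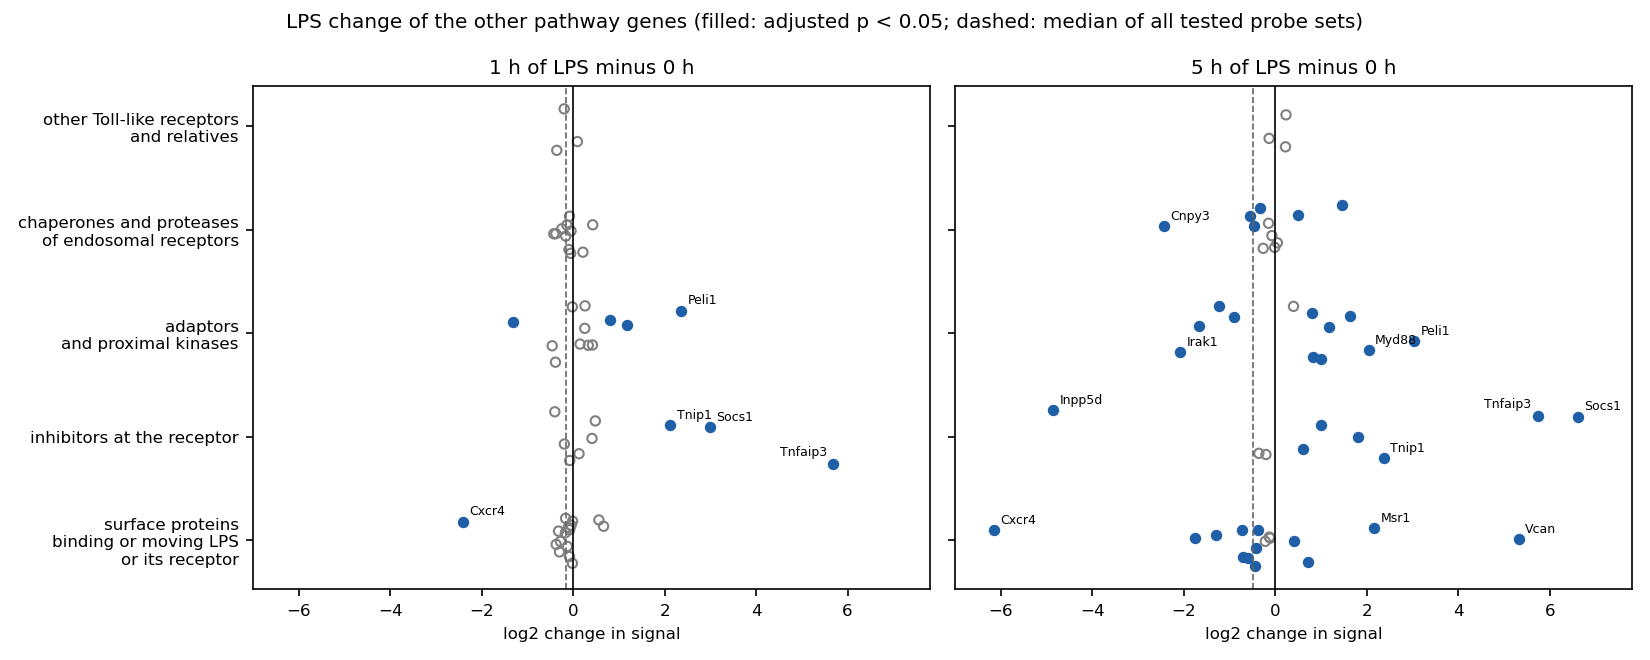
Log2 change at 1 h (left) and 5 h (right) of LPS for the 51 tested genes of the 5 pathway lists, 1 point for each gene, filled where adjusted p is under 0.05; the dashed line is the median of all tested probe sets. At 5 h Inpp5d is the lowest of the inhibitors, at −4.86, and Tnfaip3 stands at 5.74, below Socs1, whose 0 h signals were under or near the floor.

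Between the genotypes none of the 14 receptor and co-receptor probe sets passed limma's test of a difference shared by the 3 times (0 called, against 0.0305% of all tested). At an unadjusted p under 0.05 there were 4 of the 14, Lbp among them, against 1104 of all 13101 tested. The closest was Tlr3: 1422782_s_at was higher in the knockout cells at 0 h, 1 h and 5 h, by 0.44, 0.68 and 0.68, a mean of 0.60 (SE 0.10, adjusted p = 0.511, higher at 3 of 3 times). Its other probe set stood at 0.63, −0.31 and 1.67, and 1.67 at 5 h was the largest genotype difference of any of the 14 at any time. Lbp stood higher in the knockout cells by 1.09, 0.44 and 0.44 (mean 0.65), but it was kept only through knockout arrays, so its genotype difference is a description. Without the filter its adjusted p was 0.587. The Tlr4 probe set 1418162_at was higher by 0.19, 0.35 and 0.50 (mean 0.35, adjusted p = 0.581), while 1418163_at differed by 0.02, 0.11 and 0.02. Tlr9 was lower by 0.48, 0.48 and 0.13 in size (mean −0.37, adjusted p = 0.589). The adjusted p of these 4 stayed between 0.158 and 0.831 over the alternatives tried.

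At single times, 1 of the 14 differed at least 2-fold at 0 h (Lbp), 0 at 1 h and 1 at 5 h (Tlr3 1422781_at), against 2.16%, 3.11% and 4.63% of all tested probe sets. The spread of knockout minus wild type over all tested probe sets (SD) was 0.37, 0.42 and 0.48. Tlr2 and Tlr6 were lower in the knockout cells at 5 h (−0.54 and −0.50) and a little higher at 0 h (0.15 and 0.11). Cd14 and Ly96 differed by at most 0.24 at any time. Whether the LPS change itself differs between the genotypes could not be tested, since that term would leave no residual degrees of freedom. Xist, expressed from the inactive X chromosome of females, read 52.1 to 80.4 on the wild-type arrays and 2149 to 5634 on the knockout arrays, and Y-linked Eif2s3y 570 to 860 and 0.896 to 10.7. Genotype and sex of the donor mice therefore cannot be told apart, also for X-linked Tlr7, whose bright probe set differed by 0.07, 0.04 and −0.16. Its dim probe sets differed more, by 0.45, −0.41 and −0.40 (1419848_x_at) and by 0.20, 0.06 and −0.56 (1449640_at).

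**Figure D4:**
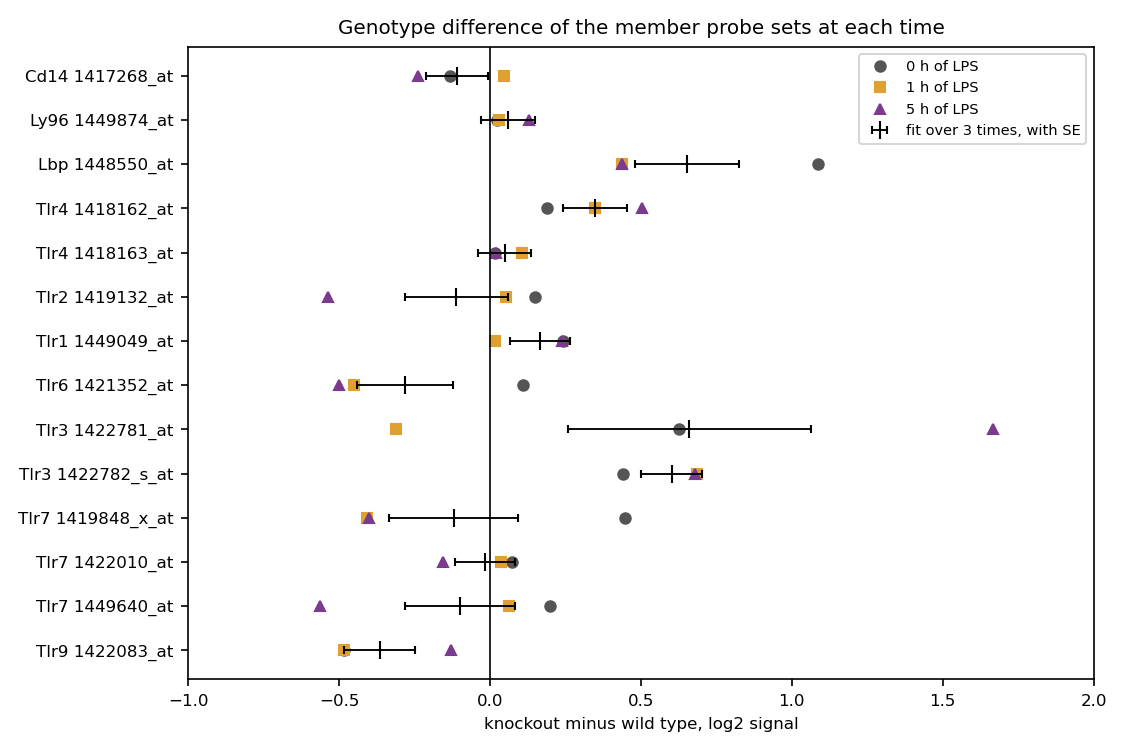
Knockout minus wild type on the log2 scale for each probe set at 0 h, 1 h and 5 h of LPS (points, each the difference of 2 arrays), with the fitted difference over the 3 times and its SE (bars). Most points lie within 0.5 of 0, and the point farthest out is Tlr3 1422781_at at 5 h, at 1.67.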

How the data were processed

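Each of the 6 samples was hybridised to 1 array. Per the labels, the authors computed MAS5 signals, so the deposited values are linear intensity. Neither the version of MAS5 nor its target for scaling was known here, and detection calls were not used. Equal trimmed means (without the highest and lowest 2%) show a common scale. Before log2 was taken, lower signals were set to a floor of 18.2, the 25th percentile over the 6 arrays. Testing took in probe sets above the median of any 1 array and left out 64 control probe sets. Probe sets were not merged. Time and genotype were fitted with limma 3.58.1 in R 4.3.3 (prior degrees of freedom 2.23), and this step was checked on simulated data. With 1 array for each genotype and time, the number of arrays limits the precision.

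The platform annotation names a single gene for 20393 probe sets, several for 691 and no gene for 1555. Gene positions and promoters are from RefSeq, GRCm38.p6. Named genes follow a rule: all member probe sets, the 2 genes most like each member that was called, the extreme genes of each list, Nfkbib, Xist and Eif2s3y. Tlr8, Unc93b1, Myd88, Bst2, Ighm, Pax5 and Cd163 were named after their values were seen. The members, lists and tests were chosen with earlier results of these data known. Alternatives were other scaling, floors, filters, 1 probe set for each gene, trended moderation, no genotype term and leaving out each array.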

Additional observations from a re-analysis of the deposited data

Results flagged for a closer look

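The genotypes moved in opposite directions at 1 h of LPS, by at least 1.2-fold each way, on 2 of the 14 probe sets. For Tlr3 1422781_at the log2 change was 0.31 in wild type and −0.63 in knockout, a difference of −0.94, on signals of 66.8 to 103. For Tlr6 the changes were 0.26 and −0.30, a difference of −0.56. Each rests on 1 array for each genotype and time, and neither difference was tested.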

How the results depend on the processing

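Settings that moved a count of the 14 probe sets by over 1.5 times were these. After quantile normalization 2 were lower between 1 h and 5 h, against 4 (30.8% of all tested). After median centring 0 were lower at 5 h, against 2 (24.3% of all), and between 1 h and 5 h 9 were higher and 1 lower, against 5 and 4 (37.7% and 21.7%). Without the filter on low signals 0 were higher at 1 h, against 4 (0.65% of all), and 3 higher between 1 h and 5 h (8.68%). With 1 probe set for each gene 1 was lower at 5 h, since Tlr4 is then counted once (53.9% of genes), and with trended moderation 2 were lower at 1 h (9.51%). Leaving out each array in turn gave 0 to 2 higher at 1 h (0.84% to 3.56% of all) and 1 to 3 lower between 1 h and 5 h (26.6% to 37.2%). Of the 51 pathway genes, 31 were higher and 8 lower at 5 h after median centring, against 19 and 18 (41.2% and 24.3% of all). At 1 h 1 was lower after quantile normalization (3.63% of all) or with a signal above 200 (8.49% of all), against 2. Without the filter 2 were higher and 0 lower at 1 h, against 6 and 2 (0.65% and 0.385% of all). The other 112 counts were within 1.5 times. The cause was not tested, except that the filter changes the number of probe sets tested and each array left out leaves 1 residual degree of freedom.

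Of the changes that turned direction, 1 was called at the deposited scale, that of Tlr4 1418163_at between 1 h and 5 h (−0.50, adjusted p = 0.0185 by limma). After quantile normalization these stood, at 1 h, at 0.006 and 0.079 for Tlr3 (1422781_at and 1422782_s_at), 0.14 for Tlr6 and 0.016 for Lbp, and at 5 h at −0.02 for Tlr2, 0.42 for Tlr9 and 0.39 for Lbp. After median centring they stood, at 1 h, at 0.018 and 0.10 for Tlr3, 0.16 for Tlr6 and 0.040 for Lbp, at 5 h at 0.43 for Tlr9, 0.43 for Lbp and 0.63 for Ly86, and between 1 h and 5 h at 0.089 for Tlr4 1418163_at. Over the arrays left out the changes at 1 h ran from −0.89 to 0.57 and from −0.20 to 0.042 for Tlr3, −0.31 to 0.28 for Tlr6 and −0.46 to 0.19 for Lbp, and that of Tlr2 at 5 h from −0.15 to 0.49. No analysis paired by replicate was possible, because the labels give no replicate numbers and each genotype has 1 array at each time. Time and genotype are both terms of the fit, so each LPS change is a mean of the changes within the genotypes. Signals near the array median, as for Lbp, Tlr9 and Tlr3 before 5 h, limit what can be read from them.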
